A study of Mus musculus with 12 samples.

Results

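The enteroendocrine transcription factors are 9 genes, Neurog3, Neurod1, Insm1, Nkx2-2, Pax4, Pax6, Isl1, Rfx6 and Fev, that were selected by their symbols among the 18929 genes counted in murine jejunal enteroids. Enteroids are epithelial organoids grown from intestinal crypts. RNA-Seq counts were deposited for 12 libraries, 4 each from control, Hdac1-deficient and Hdac2-deficient cultures grown for 5 days in ENR medium. The mutant enteroids came from mice in which villin-Cre deleted floxed Hdac1 or floxed Hdac2 in the intestinal epithelium. Villin-Cre is a recombinase driven by the promoter of an epithelial gene. The paper calls the control mice villin-Cre controls in its results and wild-type in its methods. Whether the controls carried the recombinase is therefore not settled here. The labels call the mutant libraries HDAC1-/- and HDAC2-/-. The mice had a mixed genetic background, and their age was not given in the sources used here. The methods name 1 mouse of each genotype as the source of crypts, so it is not known whether the 4 libraries of each group represent separate mice. P-values therefore measure the spread between these libraries only, and genotype, mouse and enteroid line cannot be told apart.

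Enteroendocrine cells are the hormone-producing cells of the intestinal epithelium. They arise from secretory progenitors that escape Notch signalling and transiently express Neurog3, a basic helix-loop-helix factor on which the lineage depends. NEUROG3 switches on later factors such as Neurod1, Insm1, Nkx2-2 and Pax4, and those that follow, Pax6, Isl1, Rfx6 and Fev among them, take part in the choice of hormone and in hormone gene expression. HDAC1 and HDAC2 are class I histone deacetylases that work in corepressor complexes such as CoREST, NuRD and SIN3, and INSM1 is itself a repressor that recruits such complexes.

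All 9 genes were present in both deposited tables and passed the filter on low counts in every comparison. Levels are given as CPM, counts relative to the library size after TMM scaling. The libraries held between 20692613 and 30656263 counts on genes listed in both tables, so that 3 counts, taken as the floor of detection, correspond to 0.0979 to 0.145 CPM, which covers counting error only. Hdac1 itself measured 90.5 ± 2.87 CPM (SD, n = 4) in control and 4.23 ± 0.841 CPM (SD, n = 4) in Hdac1-deficient enteroids. Hdac2 measured 137 ± 4.39 CPM (SD, n = 4) in control and 75.9 ± 2.84 CPM (SD, n = 4) in Hdac2-deficient enteroids, a smaller loss of reads. A count per gene does not show from which exons the remaining reads came. The paper reports deletion of both genes, each in its own mutant, by RT-PCR, Western blot and immunofluorescence. Each gene was also lower in the other mutant, with 75.3 CPM of Hdac1 in Hdac2-deficient and 112 CPM of Hdac2 in Hdac1-deficient enteroids.

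The 9 factors did not move in 1 direction in either mutant. In Hdac1-deficient enteroids, Neurog3 and Fev fell and Pax6, Isl1 and Rfx6 rose. In Hdac2-deficient enteroids, Neurog3 and Pax4 fell and Pax6 and Isl1 rose. Neurod1, Insm1 and Nkx2-2 passed the test in neither comparison. The test was edgeR's quasi-likelihood F test, with p-values adjusted over all genes tested, and a gene was called where the adjusted p did not exceed 0.05. With Hdac1 deficiency, 5 of the 9 genes were called, against 64.6% of all 14246 genes tested, 3 of them higher (background 32.7%) and 2 lower (background 31.9%). With Hdac2 deficiency, 4 of the 9 were called, against 62.3% of 14007 genes, 2 higher (background 31.4%) and 2 lower (background 30.9%). These shares lay near or below those of all genes, so that the count of changed factors alone does not set the group apart. The median log2 fold change of the 9 genes was 0.14 with Hdac1 deficiency, beside -0.004 over all genes tested, and -0.15 with Hdac2 deficiency, beside -0.004. Both comparisons used the same 4 control libraries.

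**Figure D1:**
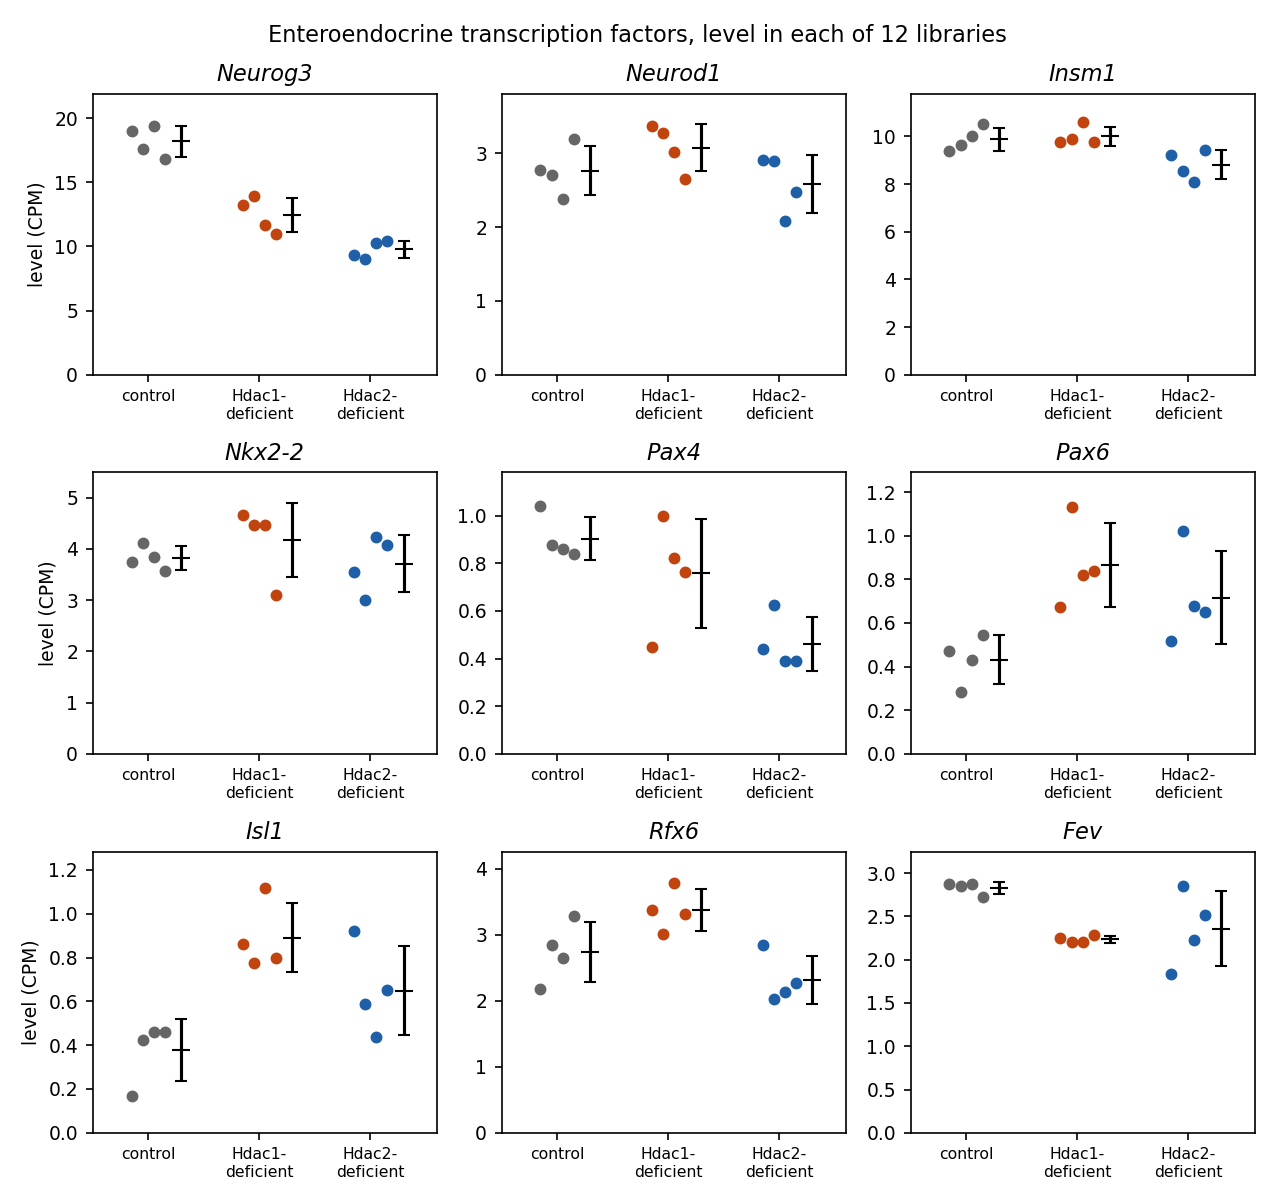
Level of each of the 9 transcription factor genes in CPM (vertical axes, each starting at 0) in the 12 libraries. Points are libraries, replicates 1 to 4 from left to right within a group, and the black bar beside them gives the mean and SD. Neurog3 lay between 16.8 and 19.4 CPM in the control libraries, between 11 and 13.9 CPM where Hdac1 was deleted and between 9.06 and 10.4 CPM where Hdac2 was.

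Neurog3, the initiator of the lineage, is gene ENSMUSG00000044312 at chr10:62133090-62134763 on the plus strand of GRCm38, with a single block of exon sequence of 1674 bases. Control replicates 1 to 4 had 567, 500, 586 and 401 Neurog3 reads, or 19.0, 17.6, 19.4 and 16.8 CPM. The Hdac1-deficient replicates had 352, 428, 357 and 302 reads, or 13.2, 13.9, 11.7 and 11 CPM. The Hdac2-deficient replicates had 254, 232, 212 and 240 reads, or 9.36, 9.06, 10.3 and 10.4 CPM. The 3 groups did not overlap at any point, with control highest and Hdac2-deficient enteroids lowest. Neurog3 fell to 0.689 of the control level in Hdac1-deficient enteroids, a log2 fold change of -0.54 ± 0.07 (SE, adjusted p = 2.4e-06). It fell to 0.538 of control in Hdac2-deficient enteroids, a log2 fold change of -0.89 ± 0.07 (SE, adjusted p = 2.8e-10). It was called in all 14 alternative analyses of each comparison, with log2 fold changes between -0.60 and -0.48 and between -0.94 and -0.86. In bulk RNA, fewer progenitors and less Neurog3 RNA per progenitor cannot be told apart.

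The window from 250 bases before to 50 bases after the start of Neurog3 is shown with those of Neurod1, a factor that passed the test in neither mutant, and of Isl1 and Pax6, which rose in both mutants, because these 4 genes carry the contrast within the group. Capitals mark the E-box CANNTG, the core sequence bound by basic helix-loop-helix factors such as NEUROG3, NEUROD1 and ATOH1. The windows come from RefSeq on GRCm38.p6, which gave a window for 7 of the 9 genes, in the order chr10:62132840-62133139 (plus strand), chr2:79456587-79456886 (minus strand), chr13:116309639-116309938 (minus strand) and chr2:105668646-105668945 (plus strand), each written 5′ to 3′ on the strand of its gene:
Neurog3: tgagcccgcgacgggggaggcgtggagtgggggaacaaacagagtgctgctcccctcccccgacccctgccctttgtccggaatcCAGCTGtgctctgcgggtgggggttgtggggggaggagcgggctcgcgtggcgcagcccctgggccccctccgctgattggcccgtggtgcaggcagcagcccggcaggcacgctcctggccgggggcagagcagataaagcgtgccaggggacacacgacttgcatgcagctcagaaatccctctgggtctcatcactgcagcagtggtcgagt
Neurod1: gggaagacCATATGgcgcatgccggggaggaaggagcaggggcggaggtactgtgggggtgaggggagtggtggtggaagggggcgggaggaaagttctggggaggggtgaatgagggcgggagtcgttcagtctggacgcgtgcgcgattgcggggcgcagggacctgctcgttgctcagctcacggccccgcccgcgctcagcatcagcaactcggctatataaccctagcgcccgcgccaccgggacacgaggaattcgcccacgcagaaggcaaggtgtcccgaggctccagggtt
Isl1: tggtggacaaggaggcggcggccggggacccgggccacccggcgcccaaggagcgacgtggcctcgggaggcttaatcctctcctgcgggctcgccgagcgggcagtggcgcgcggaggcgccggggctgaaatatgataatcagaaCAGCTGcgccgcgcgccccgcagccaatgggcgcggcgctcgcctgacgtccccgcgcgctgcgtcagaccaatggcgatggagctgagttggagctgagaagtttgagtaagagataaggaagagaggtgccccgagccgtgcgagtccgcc
Pax6: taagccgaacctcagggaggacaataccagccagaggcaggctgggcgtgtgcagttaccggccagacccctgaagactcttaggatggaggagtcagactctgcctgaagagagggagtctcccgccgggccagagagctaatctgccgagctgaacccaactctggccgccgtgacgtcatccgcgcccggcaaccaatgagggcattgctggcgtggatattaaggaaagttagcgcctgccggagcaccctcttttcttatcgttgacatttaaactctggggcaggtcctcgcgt
Neurog3 and Isl1 each held 1 E-box with the same 6 letters, CAGCTG, and Neurod1 held 1 E-box, CATATG. Of the 2 Pax6 windows in the RefSeq table, the one shown, at the start of the gene, held none, and the other (chr2:105682213-105682512) held 1. An E-box reads the same on both strands, and 72.3% of 32851 windows of 300 bases held at least 1 with a median of 1, so that most promoters have a match. The letters CACNAG, the N-box known as a site of HES repressors and searched on both strands, were found in 42.5% of the windows, once in that of Neurod1 and not in those of Neurog3, Isl1 or the Pax6 window shown, while the other Pax6 window held 1. No 6 letters can match both motifs, although neighbouring matches may overlap. A match describes the sequence only and no binding was measured here.

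Neurog3 lies within Fam241b, a protein-coding gene of the opposite strand listed here as 2010107G23Rik, and exons of both overlap. The library kit kept strand, but whether the counting used it was not given in the sources used here, so reads of one gene counted on the other cannot be separated. Fam241b moved the other way. Its mean was 14.6 CPM in control enteroids, against 16.9 CPM with Hdac1 deficiency, a log2 fold change of 0.23 ± 0.07 (SE, adjusted p = 0.0082), and 16.2 CPM with Hdac2 deficiency. The value with Hdac2 deficiency, 0.16 ± 0.06 (SE, adjusted p = 0.029), lost its call in 5 of 8 analyses that left out 1 library (Hdac2-deficient replicate 2, 3 or 4, or control replicate 2 or 3) and with DESeq2, library size alone and all 12 libraries in 1 fit (adjusted p between 0.0502 and 0.111). Its part in the Neurog3 counts was not tested.

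Neurod1, Insm1 and Nkx2-2, which act soon after Neurog3, did not pass the test against control in either mutant. Insm1, a zinc finger repressor at chr2:146221921-146225020, had 280, 274, 303 and 250 reads in control replicates 1 to 4 (9.38 to 10.5 CPM). It had 260, 305, 322 and 269 reads in the Hdac1-deficient libraries (9.75 to 10.6 CPM) and 250, 219, 167 and 217 reads in the Hdac2-deficient ones (8.1 to 9.41 CPM). Its Hdac1-deficient libraries lay within or just above the control range, while 3 of 4 Hdac2-deficient libraries lay below it. The log2 fold change of Insm1 was 0.03 (95% CI -0.11 to 0.18, adjusted p = 0.7) with Hdac1 deficiency and -0.15 (95% CI -0.30 to 0.01, adjusted p = 0.087) with Hdac2 deficiency, and the latter passed the test, at -0.18 and an adjusted p of 0.0401, where libraries were scaled by size alone. Insm1 was thus the most tightly bounded of the 3, and these intervals exclude a loss as large as that of Neurog3.

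Neurod1, a basic helix-loop-helix factor and known target of NEUROG3 at chr2:79452521-79456751, had 83, 77, 72 and 76 reads in control (2.38 to 3.19 CPM). The Hdac1-deficient libraries had 90, 101, 92 and 73 reads (2.65 to 3.37 CPM), and the Hdac2-deficient ones 79, 74, 43 and 57 (2.08 to 2.91 CPM). The ranges of all 3 groups overlapped. Its log2 fold changes were 0.18 (95% CI -0.09 to 0.44, adjusted p = 0.23) and -0.06 (95% CI -0.36 to 0.23, adjusted p = 0.72).

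Nkx2-2, a homeodomain factor at chr2:147177546-147194243, had 112, 117, 116 and 85 reads in control (3.57 to 4.12 CPM). In Hdac1-deficient libraries it had 124, 138, 136 and 85 reads, where replicate 4, at 3.09 CPM, stood below the other 3 (4.47 to 4.65 CPM) and below every control library. In Hdac2-deficient libraries it had 96, 77, 87 and 94 reads (3.01 to 4.22 CPM). The log2 fold changes were 0.14 (95% CI -0.12 to 0.40, adjusted p = 0.33) and -0.04 (95% CI -0.29 to 0.21, adjusted p = 0.76). Without Hdac1-deficient replicate 4, the first was 0.26 and passed the test (adjusted p = 0.0423). Antisense transcripts overlap Nkx2-2 and Neurod1 on the opposite strand in the annotation and were not analysed here, and the gene Cerkl, which overlaps Neurod1 on the same strand, held at most 5 reads in any library.

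The ratio of Neurog3 reads to the reads of these 3 factors, which does not depend on library size, was lower in both mutants. Per read of Insm1 there were 1.85 ± 0.181 reads of Neurog3 in control libraries, against 1.25 ± 0.153 with Hdac1 deficiency and 1.11 ± 0.111 with Hdac2 deficiency (SD, n = 4 each). The lowest control ratio, 1.6, lay above the highest mutant ratio, 1.4. The ratio to Nkx2-2 was 4.78 ± 0.371 in control libraries and 3.03 ± 0.4 and 2.66 ± 0.249 in those lacking Hdac1 or Hdac2 (SD, n = 4 each), again without overlap between control and mutants. The ratio to Neurod1 went from 5.28 to 8.14 in control and reached at most 4.24 and 4.93 in the mutants. The ratio to Fev differed less, with 6.17 to 6.74 in control and 4.79 to 6.29 in Hdac1-deficient libraries, which overlap, and 3.18 to 5.08 in Hdac2-deficient ones. The ratio to Pax4 overlapped among all groups, with 18.3 to 22.5 in control, 13.8 to 29.3 with Hdac1 deficiency and 14.5 to 26.7 with Hdac2 deficiency. Neurog3 made up 40.1 to 45.6% of the summed CPM of the 9 factors in control libraries, 30.4 to 35.0% with Hdac1 deficiency and 29.6 to 33.7% with Hdac2 deficiency. The sum of all 9 was 41.3 to 42.8 CPM in control libraries, while it was 34.5 to 39.6 CPM after loss of Hdac1 and 30.5 to 32.8 CPM after loss of Hdac2.

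**Figure D2:**
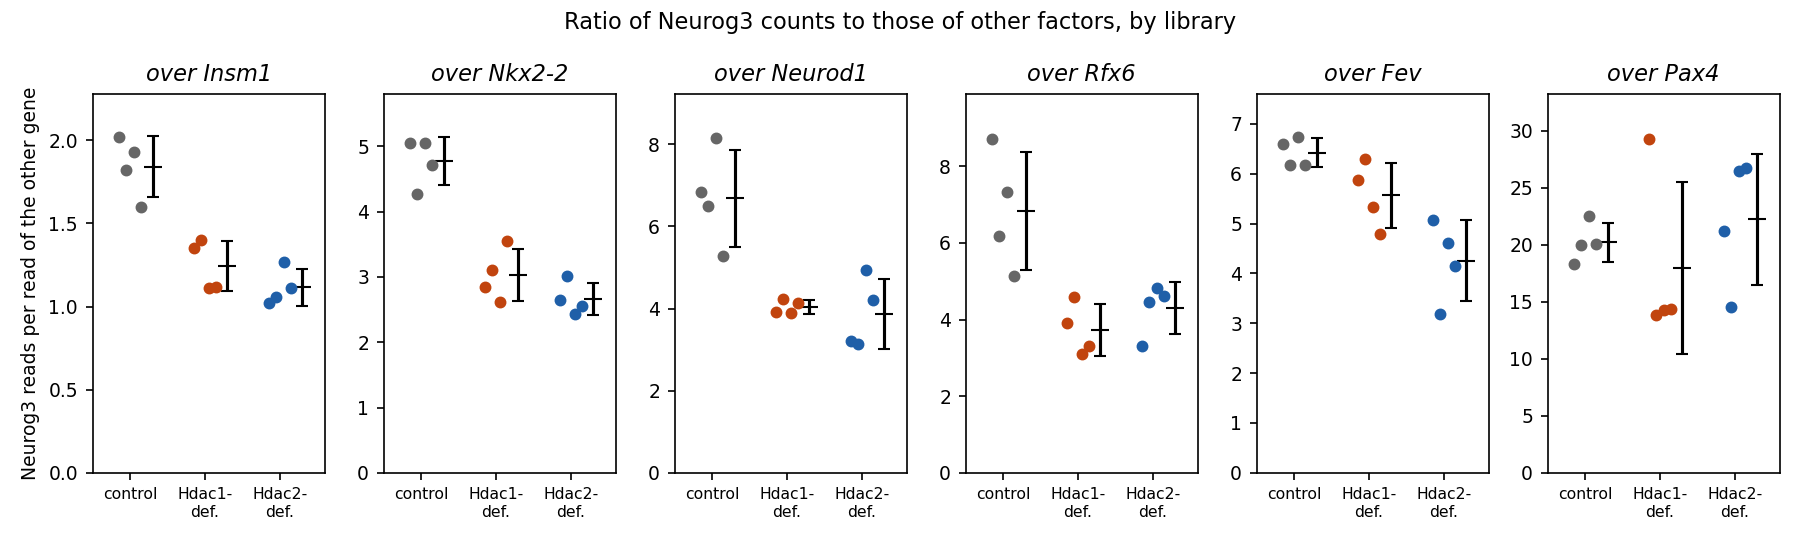
Neurog3 reads divided by the reads of Insm1, Nkx2-2, Neurod1, Rfx6, Fev or Pax4 in the same library (vertical axes, each starting at 0). Points are the 4 libraries of a group, and black bars give mean and SD. The control ratios to Insm1 (1.6 to 2.02) and Nkx2-2 (4.27 to 5.06) lie above all 8 mutant libraries, while those to Fev overlap between control and Hdac1-deficient libraries and those to Pax4 overlap among all groups.

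Pax6 and Isl1, factors of the hormone-producing stage, moved in the opposite direction to Neurog3 and were the least abundant of the group in control. Pax6, a paired-box and homeodomain factor required for several hormone genes (chr2:105668900-105697364), had 14, 8, 13 and 13 reads in control replicates 1 to 4 (0.281 to 0.546 CPM). It had 18, 35, 25 and 23 reads in Hdac1-deficient libraries (0.675 to 1.13 CPM) and 14, 26, 14 and 15 in Hdac2-deficient ones (0.516 to 1.02 CPM). All Hdac1-deficient libraries were above all controls, whereas Hdac2-deficient replicate 1 lay within the control range. Pax6 rose 2.05-fold (95% CI 1.4 to 2.99) with Hdac1 deficiency, a log2 fold change of 1.03 ± 0.26 (SE, adjusted p = 0.0019). With Hdac2 deficiency it rose 1.68-fold (95% CI 1.09 to 2.57), a log2 fold change of 0.75 ± 0.3 (SE, adjusted p = 0.034). The second call was lost with DESeq2 (adjusted p = 0.0823), with the replicate number as a block (adjusted p = 0.0507) and without Hdac2-deficient replicate 2, control replicate 2 or control replicate 3 (log2 fold changes 0.51 to 0.74, adjusted p between 0.0597 and 0.17).

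Isl1, a LIM-homeodomain factor of several hormone lineages (chr13:116298281-116309689), had 5, 12, 14 and 11 reads in control (0.167 to 0.462 CPM). It had 23, 24, 34 and 22 reads in Hdac1-deficient libraries (0.777 to 1.12 CPM) and 25, 15, 9 and 15 in Hdac2-deficient ones (0.436 to 0.921 CPM). The Hdac1-deficient libraries were again all above control, and Hdac2-deficient replicate 3 lay within the control range. Isl1 rose 2.38-fold (95% CI 1.58 to 3.58) with Hdac1 deficiency, a log2 fold change of 1.25 ± 0.28 (SE, adjusted p = 6.5e-04), the largest of the 9 genes. With Hdac2 deficiency it rose 1.77-fold (95% CI 1.1 to 2.85), a log2 fold change of 0.82 ± 0.33 (SE, adjusted p = 0.035). That call was lost with DESeq2 (adjusted p = 0.0819), with the replicate block (adjusted p = 0.0558) and without Hdac2-deficient replicate 1, Hdac2-deficient replicate 4 or control replicate 1 (log2 fold changes 0.56 to 0.82, adjusted p between 0.0613 and 0.158). The Hdac1 calls of both genes held in all 14 alternatives.

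Pax6 and Isl1 were the only 2 of the 9 to be called and past a 2-fold change with Hdac1 deficiency, against 6.87% of all genes tested for a rise of that size and 10.6% for either direction, and 0 fell that far (background 3.71%), also with DESeq2. Pax6 sat close to that limit, and its log2 fold change was under 1 without Hdac1-deficient replicate 2 or control replicate 2, as that of Isl1 was without control replicate 1, each of which left 1 gene past the limit. With Hdac2 deficiency, edgeR and DESeq2 each found 0 of the 9 past 2-fold (background 8.3%, with 5.45% higher and 2.84% lower), although 4 had an unadjusted p under 0.05 by edgeR and 2 by DESeq2. Pax4, at a log2 fold change of -0.94, was the nearest and passed the limit without Hdac2-deficient replicate 2. The groups did not overlap in CPM for 4 of the 9 genes with Hdac1 deficiency (Fev, Isl1, Neurog3 and Pax6, background 58.5%) and for 2 with Hdac2 deficiency (Neurog3 and Pax4, background 56.1%).

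**Figure D3:**
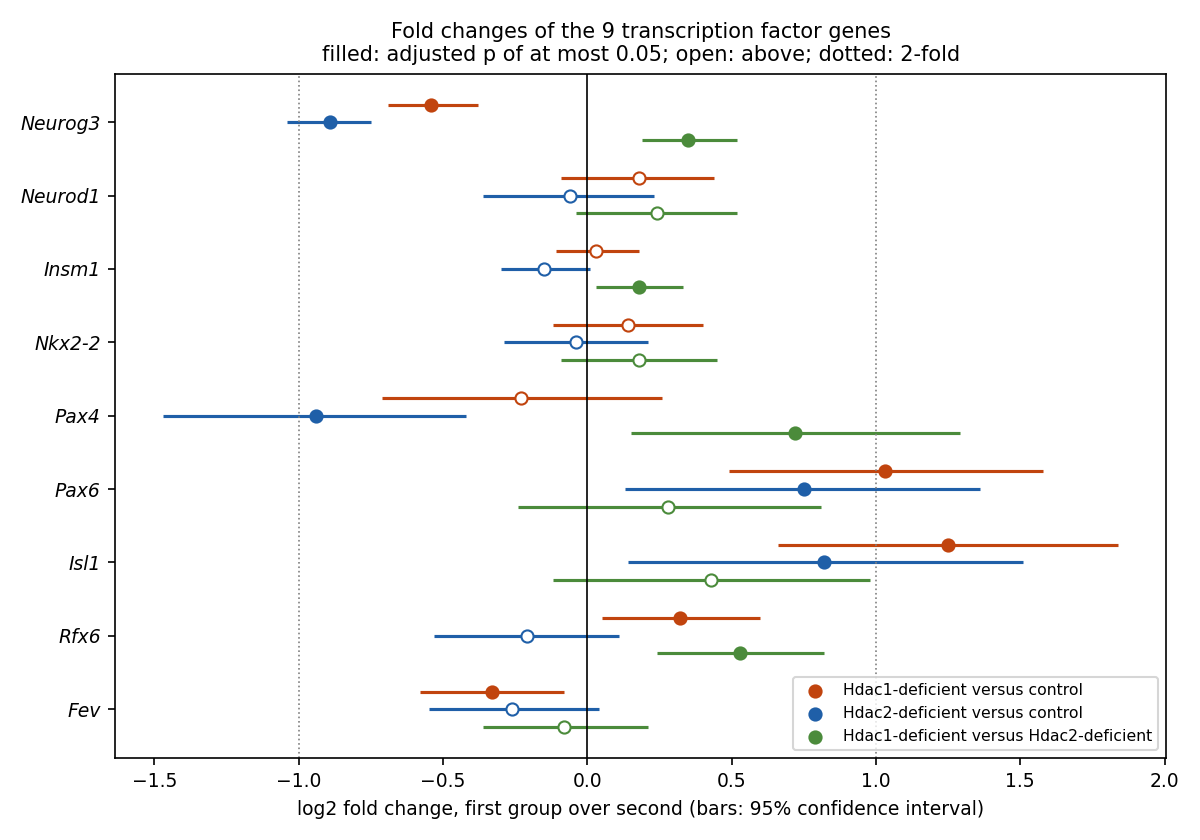
Log2 fold change of each gene (horizontal axis) in the comparison of each mutant with control and of the mutants with each other, with 95% confidence intervals as bars. Filled points passed the test, open points did not, and dotted lines mark 2-fold. Neurog3 lies below 0 in both comparisons with control (-0.54 and -0.89), Pax6 and Isl1 lie above it, and the intervals of Neurog3 and Insm1 are the shortest.

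The other 3 factors passed the test against control in 1 of the 2 comparisons. Pax4, a paired-box repressor of early endocrine cells (chr6:28442334-28449353), had 31, 25, 26 and 20 reads in control (0.84 to 1.04 CPM), 12, 31, 25 and 21 in Hdac1-deficient libraries (0.45 to 1.0 CPM) and 12, 16, 8 and 9 in Hdac2-deficient ones (0.388 to 0.625 CPM). Every Hdac2-deficient library lay below every control library, while the Hdac1-deficient ones spanned both ranges. Pax4 fell to 0.52 of control with Hdac2 deficiency, a log2 fold change of -0.94 ± 0.25 (SE, adjusted p = 0.0027), and kept that call in all 14 alternatives. With Hdac1 deficiency the log2 fold change was -0.23 (95% CI -0.71 to 0.26, adjusted p = 0.41), an interval that still holds a loss as large as -0.71.

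Rfx6, a winged-helix factor needed for incretin-producing cells (chr10:51677756-51730432), had 65, 81, 80 and 78 reads in control (2.18 to 3.28 CPM), 90, 93, 115 and 91 in Hdac1-deficient libraries (3.01 to 3.78 CPM) and 77, 52, 44 and 52 in Hdac2-deficient ones (2.03 to 2.84 CPM). Both mutants overlapped control, but the lowest Hdac1-deficient library was above the highest Hdac2-deficient one. Rfx6 rose 1.25-fold (95% CI 1.04 to 1.52) with Hdac1 deficiency, a log2 fold change of 0.32 ± 0.13 (SE, adjusted p = 0.039). This call was lost with DESeq2 (adjusted p = 0.0673), without the filter on low counts (0.0501), and in 6 of 8 analyses that left out 1 library, those without Hdac1-deficient replicate 1, 3 or 4 or control replicate 1, 2 or 3 (log2 fold changes 0.22 to 0.35, adjusted p between 0.0503 and 0.153). With Hdac2 deficiency its log2 fold change was -0.21 (95% CI -0.53 to 0.11, adjusted p = 0.24).

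Fev, an ETS-domain factor best known from serotonergic cells (chr1:74881509-74885419), had 86, 81, 87 and 65 reads in control (2.73 to 2.88 CPM), 60, 68, 67 and 63 in Hdac1-deficient libraries (2.2 to 2.29 CPM) and 50, 73, 46 and 58 in Hdac2-deficient ones (1.84 to 2.85 CPM). The first 2 groups were tight and separate, while the third spread across both. Fev fell to 0.794 of control with Hdac1 deficiency, a log2 fold change of -0.33 ± 0.12 (SE, adjusted p = 0.02), which DESeq2 did not call (adjusted p = 0.0645). With Hdac2 deficiency the log2 fold change was -0.26 (95% CI -0.55 to 0.04, adjusted p = 0.12), and without Hdac2-deficient replicate 2 it was -0.37 and passed the test (adjusted p = 0.039).

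The depth behind these values differed widely within the group. The mean count per library ranged from 10.5 for Isl1 in control to 514 for Neurog3 in control. Counting error alone gives a coefficient of variation of 33.4% for the former and 4.46% for the latter, and the observed values were 37.5% and 6.48%. For Fev, the 4 control and the 4 Hdac1-deficient libraries varied by 2.47% and 1.92%, below the 11.3% and 12.5% that counting alone would give. A spread under counting error makes the separation of these groups look cleaner than their depth allows. DESeq2 did not call Fev there (adjusted p = 0.0645). For Nkx2-2 in Hdac1-deficient libraries the variation, 17.4%, was 1.87 times that of counting.

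**Figure D4:**
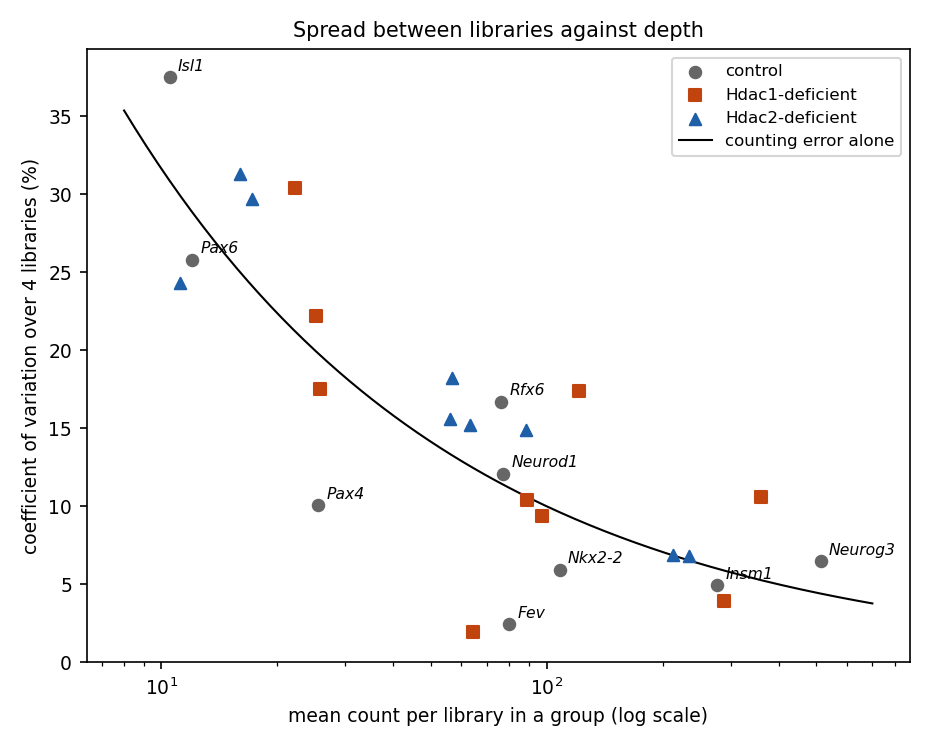
Coefficient of variation over the 4 libraries of a group (vertical axis, %) against the mean count per library (horizontal axis, log scale), 1 point for each gene and group, with the control points named. The line is the variation that counting alone would give. Isl1, Pax6 and Pax4 sit at the low-count end, where that line is at about 20% or more, and Fev in control and Hdac1-deficient libraries lies far below it.

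A contrast of the mutants, fitted over all 12 libraries, tests the difference between their responses directly. Neurog3, Insm1, Pax4 and Rfx6 were higher where Hdac1 was lost than where Hdac2 was lost, and no member was called lower. That is 4 of the 9 genes called, against 45.9% of 14510 genes tested, all 4 in the higher direction (background 22.3%), and 3 of them, Neurog3, Insm1 and Rfx6, did not overlap between the groups (background 41.8%). For the lower direction, edgeR found 0 genes (background 23.7%), also at an unadjusted p under 0.05, as did DESeq2. None of the 9 differed by 2-fold between the mutants by either tool (background 5.62%, with 2.74% higher and 2.89% lower). Rfx6 was 1.45-fold higher (95% CI 1.18 to 1.77), a log2 difference of 0.53 ± 0.14 (SE, adjusted p = 0.0033). Neurog3 was 1.28-fold higher (95% CI 1.14 to 1.43), a log2 difference of 0.35 ± 0.08 (SE, adjusted p = 6.6e-04). Both held in all 17 alternatives of this comparison. Pax4 was 1.64-fold higher (log2 difference 0.72 ± 0.28, SE, adjusted p = 0.037), a call lost with DESeq2 (0.0692) and without Hdac1-deficient replicate 2, 3 or 4 or Hdac2-deficient replicate 1, 3 or 4 (adjusted p between 0.0564 and 0.137). Insm1 was 1.13-fold higher (log2 difference 0.18 ± 0.07, SE, adjusted p = 0.045), a call lost with DESeq2 (0.0771), without the filter on low counts and in 7 of 12 analyses that left out 1 library (adjusted p between 0.0512 and 0.138), those without Hdac1-deficient replicate 1, 2 or 3, Hdac2-deficient replicate 2 or 3, or control replicate 2 or 3.

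For the other 5 genes the difference between the mutants did not pass the test. The interval of the log2 difference ran from -0.24 to 0.81 for Pax6 and from -0.12 to 0.98 for Isl1, so that the larger rise of both with Hdac1 deficiency is not separated from that with Hdac2 deficiency. It ran from -0.04 to 0.52 for Neurod1, from -0.09 to 0.45 for Nkx2-2 and from -0.36 to 0.21 for Fev. Nkx2-2 passed, at 0.30, without Hdac1-deficient replicate 4 (adjusted p = 0.0446).

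Per kilobase of principal transcript, Neurog3 was by far the most abundant of the 9 in control, at 11.8 ± 0.765 CPM per kb (SD, n = 4), followed by Insm1 at 3.19 ± 0.157. Fev (1.9 ± 0.047) and Nkx2-2 (1.8 ± 0.107) came next and overlapped, as did Neurod1 (1.01 ± 0.123) with Rfx6 (0.79 ± 0.132) and Rfx6 with Pax4 (0.66 ± 0.0663). Pax6 and Isl1 were last, both at 0.15 CPM per kb, and overlapped. Neurog3 and Insm1 were first and second in the mutants too, at 8.08 and 3.22 CPM per kb in Hdac1-deficient and 6.35 and 2.84 CPM per kb in Hdac2-deficient enteroids. Below them Nkx2-2 stood above Fev in both mutants, where the ranges of these 2 genes overlapped as in control. That order depends on the length used. Per kilobase of all exons together, Fev (1.46) stood above Nkx2-2 (1.29) in Hdac2-deficient enteroids.

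Among 21 other transcription factors linked to endocrine differentiation, 17 were tested, and 4 rose and 8 fell with Hdac1 deficiency while 4 rose and 9 fell with Hdac2 deficiency. The list's median log2 fold change was -0.17 and -0.29, beside -0.004 over all genes tested for each. The called genes made up 70.6% and 76.5% of those tested, beside 64.6% and 62.3% of all genes. Etv1, an ETS factor, rose with Hdac1 deficiency (log2 fold change 1.04, adjusted p = 0.0013) and with Hdac2 deficiency (log2 fold change 0.90, adjusted p = 0.0071). Hhex, a homeodomain factor of pancreatic somatostatin cells, fell most, with log2 fold changes of -1.66 (adjusted p = 3.5e-05) and -1.34 (adjusted p = 2.7e-05). Sox4, an early HMG-box factor, fell in both, from 216 CPM to 136 and 145 CPM, and so did Rfx3 and Foxa2, whereas Foxa1 rose from 27.4 CPM to 38.5 and 44.9 CPM. Pdx1, a homeodomain factor of the duodenum and pancreas, rose with Hdac2 deficiency (log2 fold change 1.51, adjusted p = 3.0e-10) and had a log2 fold change of -0.28 (adjusted p = 0.094) with Hdac1 deficiency, and the mutants differed from each other (log2 difference -1.80, adjusted p = 1.6e-12).

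Upstream of Neurog3, 18 of 19 secretory fate and Notch genes were tested with Hdac1 deficiency, of which 3 rose and 8 fell, and 17 with Hdac2 deficiency, of which 3 rose and 5 fell. The median log2 fold changes were -0.14 and -0.08. The called genes made up 61.1% and 47.1% of those tested, beside 64.6% and 62.3% of all genes. Atoh1, the basic helix-loop-helix factor of all secretory lineages, did not pass the test in either (log2 fold changes -0.11, adjusted p = 0.15, and 0.03, adjusted p = 0.66). Hes1, the Notch-induced repressor of Atoh1 and Neurog3, fell in both, from 118 CPM to 95 and 96.8 CPM (log2 fold changes -0.30, adjusted p = 2.7e-07, and -0.27, adjusted p = 2.1e-07). Neurog3 and its known repressor were lower in the same libraries, and a link between them was not tested. Dll3, an atypical Notch ligand gene with at most 40 reads in a control library, fell with Hdac2 deficiency (log2 fold change -1.01, adjusted p = 4.4e-04). With Hdac1 deficiency its log2 fold change was -0.43 (adjusted p = 0.053, and 0.0298 to 0.155 over the 14 alternatives). The receptor Notch3 moved in opposite directions, with log2 fold changes of -0.94 (adjusted p = 4.4e-06) with Hdac1 and 0.93 (adjusted p = 5.0e-08) with Hdac2 deficiency, and Hes5, another Notch-induced repressor, rose with Hdac1 deficiency (0.82, adjusted p = 0.0015).

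Among 16 corepressor genes that work with INSM1, NKX2-2 or REST were the 2 deleted deacetylase genes. By edgeR's test, 3 of the 16 rose and 7 fell with Hdac1 deficiency and 0 rose and 10 fell with Hdac2 deficiency. That is 62.5% of the list in each comparison, beside 64.6% and 62.3% of all genes tested. The list's median log2 fold change was -0.01 and -0.19. Rcor2, a CoREST subunit, went from 59.0 CPM in control to 33.4 and 28.9 CPM (log2 fold changes -0.81, adjusted p = 1.3e-12, and -1.02, adjusted p = 9.7e-14). Tle2, a Groucho-type corepressor, rose with Hdac1 deficiency (0.82, adjusted p = 1.3e-04).

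Most products of the mature lineage that were tested went up while Neurog3 went down. Of 13 hormone genes tested with Hdac1 deficiency, 10 rose and none fell, and of 12 with Hdac2 deficiency, 9 rose and 1 fell. The median log2 fold changes were 1.03 and 1.10. The summed level of the 14 hormone genes listed in both tables rose less steeply. It was 254 to 264 CPM in control libraries, 325 to 371 CPM with Hdac1 deficiency and 324 to 353 CPM with Hdac2 deficiency. The called genes made up 76.9% and 83.3% of those tested, beside 64.6% and 62.3% of all genes. The gene that fell was Chga, an enteroendocrine cell marker (log2 fold change -0.18, adjusted p = 0.0013). With Hdac1 deficiency Chga rose slightly (0.14, adjusted p = 0.0053). The paper reports increased Chga by qPCR in both mutants, so the direction with Hdac2 deficiency differs from that found here. Gcg, the proglucagon gene, rose from 2.01 ± 0.132 CPM to 26.9 ± 3.86 and 15.4 ± 1.41 CPM (SD, n = 4 each, log2 fold changes 3.76 and 2.95), and Nts and Cck, for neurotensin and cholecystokinin, rose in both mutants too (3.82 and 2.20, 1.71 and 1.79). Among 16 granule and exocytosis genes tested, 11 rose and 2 fell with Hdac1 and 12 rose and 3 fell with Hdac2 deficiency (81.2% and 93.8% called). The largest were Scg3 (log2 fold changes 2.71 and 2.62), Resp18 (2.22 and 1.91) and Scg2 (2.07 and 2.34), which encode granule proteins. In control libraries Scg3 had at most 5 reads (mean 0.131 CPM, within the floor), Resp18 at most 7 and Nts at most 8. The size of these 3 rises is therefore uncertain. Together with Gcg and Cck, 6 genes are named. The fold changes of the 9 factors, within 1.25 of 0 on the log2 scale, were smaller than those of these 6 genes, which were picked for large changes. With Hdac1 deficiency, Isl1 (1.25) was above the hormone median of 1.03, Pax6 (1.03) was near it, and both exceeded the granule median of 0.43. With Hdac2 deficiency, Isl1 (0.82) and Pax6 (0.75) lay below the hormone median of 1.10 and above the granule median of 0.59.

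**Figure D5:**
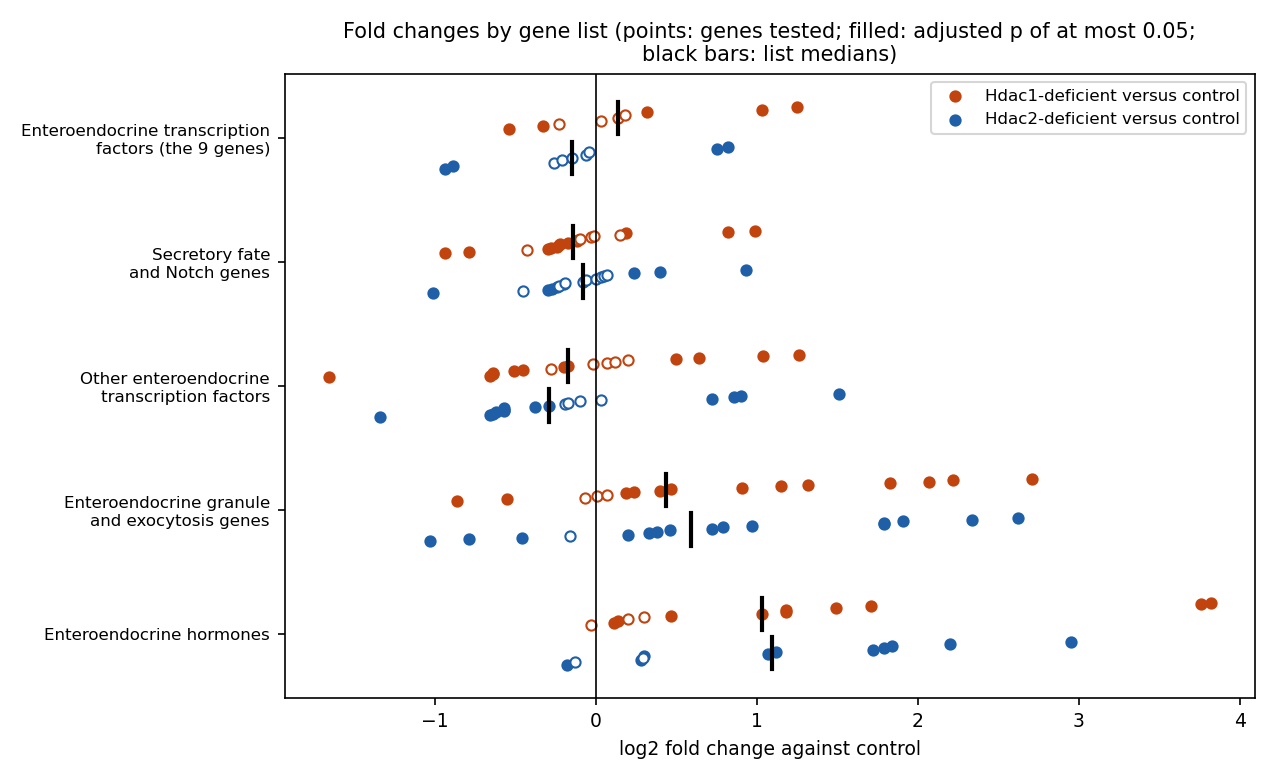
Log2 fold change against control (horizontal axis) of each gene tested, by list, for both mutants. Filled points passed the test, open points did not, and black bars mark the median of a list. The hormone medians (1.03 and 1.10) and the granule medians (0.43 and 0.59) lie above 0, while the 9 factors lie on both sides of it with medians of 0.14 and -0.15.

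Markers of other cell types of the epithelium shifted in the same libraries. Over all genes tested, 32.7% rose and 31.9% fell with Hdac1 deficiency, and 31.4% rose and 30.9% fell with Hdac2 deficiency. With Hdac1 and Hdac2 deficiency alike, all 8 enterocyte markers tested rose (summed level 8030 to 8635 CPM in control, 16326 to 18494 and 12861 to 14408 CPM in the mutants). Of 8 crypt stem cell markers, 6 fell and 1 rose with Hdac1 and 7 fell and 1 rose with Hdac2 deficiency (4731 to 4858 CPM in control, 2868 to 3320 and 2580 to 2810 CPM). Goblet cell markers rose for 4 and fell for 2 of 8 with Hdac1 deficiency and rose for all 8 with Hdac2 deficiency. Paneth cell markers rose for 2 and fell for 2 of 7, and rose for 5 and fell for 1 of 7. Of the tuft cell markers, 1 of 6 rose with Hdac1 deficiency and 2 of 5 fell with Hdac2 deficiency. Several of the factors also act in neurons, and 6 of 10 enteric neuron and glia markers were listed in both tables, with a summed level of 9.49 to 10.4 CPM in control libraries, 5.34 to 7.64 CPM with Hdac1 deficiency and 5.78 to 7.07 CPM with Hdac2 deficiency. Most of it was Ret, which encodes a receptor tyrosine kinase and fell in both (log2 fold changes -0.72 and -0.74). Of 10 mesenchyme and immune markers, 5 were listed in both tables, with 3.66 to 5.77 CPM in sum over all libraries, and the 1 tested did not pass. The part of these shifts in the levels of the 9 factors was not tested.

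For the 6 factors with a mean of at least 1 CPM, the genes with the most similar course over the 12 libraries were found among 12390 others by the root mean square difference of centred log2 CPM. Those nearest to Neurog3 were Cuedc2 (0.087) and Txndc16 (0.096), where Cuedc2 measured 40.3 CPM in control, 26.6 CPM with Hdac1 deficiency and 21.1 CPM with Hdac2 deficiency. Nearest to Fev were Hddc2 (0.088) and Bud13 (0.096), and nearest to Rfx6 were 2210408I21Rik (0.127) and Dnajc18 (0.13). For Insm1, whose own course varied by only 0.105 on this scale, they were Cxxc1 (0.053) and Itsn1 (0.055). For Neurod1 they were Rab19 (0.108) and AA465934 (0.11), and for Nkx2-2 Mdm1 (0.132) and Sh2d3c (0.14). All genes were compared over the same 12 libraries, and so share the same controls and the same depth in each library. These distances describe likeness of level only.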

How the data were processed

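RNA-Seq of poly(A) RNA from 12 enteroid libraries was analysed, grouped by the labels (4 control, 4 Hdac1-deficient, 4 Hdac2-deficient). The authors aligned paired reads to GRCm38 with STAR (2.4.0f1 in the submitters' processing notes) and deposited 1 table per mutant with raw counts per gene, the same 4 control libraries in both, listing only genes whose counts sum to 10 or more (18676 and 18225 genes, 17972 in both). The counting program and its strand setting were not given in the sources used here. The tables also hold a normalized score per library deposited by the authors, and the authors' fold changes and p-values, none of which were used. The labels name no batch or date.

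Counts were tested with edgeR 4.0.16 in R 4.3.3 (quasi-likelihood F test, robust, TMM, filterByExpr, Benjamini-Hochberg over all genes tested). Each mutant was compared with control in 8 libraries, and the mutants with each other in 12. Intervals are 95%. CPM values use counts on the 17972 shared genes and the TMM factors of the 12-library fit. Positions and transcript lengths come from GENCODE M21 on GRCm38. Alternatives were DESeq2 1.42.0, RLE factors, library size alone, no filter, all 12 libraries in 1 fit, the replicate number as a block and each library left out. The script was tested on simulated counts. No 2 libraries of a group agreed within sampling noise. The 9 genes and all lists were chosen with earlier results of these data known. The genes named are the 9, Hdac1 and Hdac2, from each list those called with the largest changes (up to 3, or 6 for other transcription factors, per comparison with control), and the 2 genes nearest to each member of at least 1 CPM. Atoh1, Hes1, Chga, Fam241b and Cerkl were named outside that rule. Not every gene that the rule allows is named, and 1 of them is not reported here. Python 3.11.15, pandas 2.3.3 and matplotlib 3.10.9 were used for tables and figures.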

Additional observations from a re-analysis of the deposited data

Results flagged for a closer look

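Of 27 combinations of gene and group, 3 had a library that stood apart from the other 3, where chance flags about 1 in 20. They were Insm1 in Hdac1-deficient replicate 3 (10.6 CPM, above the others), Nkx2-2 in Hdac1-deficient replicate 4 (3.09 CPM, below the others) and Isl1 in control replicate 1 (0.167 CPM, from 5 reads, below the others).

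The response to the loss of Hdac1 and of Hdac2 differed by the direct test of the mutants for 4 genes. The log2 difference, Hdac1-deficient minus Hdac2-deficient, was 0.53 for Rfx6, 0.35 for Neurog3, 0.72 for Pax4 and 0.18 for Insm1. The last 2 did not hold with DESeq2.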

How the results depend on the processing

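The calls for Neurog3 in all 3 comparisons, for Pax6 and Isl1 with Hdac1 deficiency, for Pax4 with Hdac2 deficiency and for Rfx6 between the mutants held in every alternative run. The others rested on low counts or p-values near the limit. With DESeq2, 2 genes were higher with Hdac1 deficiency in place of 3 (Isl1 and Pax6), and 1 was lower in place of 2 (Neurog3). By the same tool, 0 were higher with Hdac2 deficiency in place of 2, and 2 were higher in the direct comparison in place of 4 (Neurog3 and Rfx6). With 1 library left out, the number higher was 2 to 3 with Hdac1 deficiency, 1 to 2 with Hdac2 deficiency and 2 to 4 in the direct comparison. The number lower with Hdac2 deficiency was 2 to 3. The number past 2-fold was 1 to 2 for a rise with Hdac1 deficiency and 0 to 1 for a fall with Hdac2 deficiency. The direction turned for 3 values that had not passed, Neurod1 with Hdac2 deficiency (-0.13 to 0.02, above 0 without Hdac2-deficient replicate 3), Nkx2-2 with Hdac2 deficiency (-0.11 to 0.04, above 0 without Hdac2-deficient replicate 2) and Fev between the mutants (-0.19 to 0.04, above 0 without Hdac2-deficient replicate 2). The cause was not tested.

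With the replicate number as a block, 0 genes were higher with Hdac2 deficiency (Pax6 at an adjusted p of 0.0507, Isl1 at 0.0558), and Insm1 lost its call between the mutants. Whether the numbers pair the libraries is not given, and the correlations between same-numbered libraries do not settle it. Of 12 same-numbered pairs, 1 had a correlation over 0.1 (range -0.11 to 0.16) and 7 correlated best with their own number. Depth limits Isl1, Pax6 and Pax4, with as few as 5 reads in a library.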
